A study of Mus musculus with 12 samples.

Results

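The antioxidant and glutathione defence genes comprised 38 mouse genes, chosen by symbol and read through their Ensembl IDs among the 57010 IDs counted, all of them autosomal. Their RNA was measured in primary chondrocytes, the matrix-producing cells of cartilage, in 12 poly(A) libraries. The labels divided these libraries into Control, WT and SIRT5F101L, with 4 libraries in each. All cells carried the genotype Wild type, and the cells of the last 2 groups received a wild-type plasmid or one for the SIRT5F101L mutant. SIRT5, a sirtuin of mitochondria, takes malonyl, succinyl and glutaryl groups off lysines. What the Control cells received, the promoter and species of the plasmids, the time after transfection and the age of the animals were not stated, and whether the 4 libraries of a group were separate cultures was not stated either. The p-values therefore measure only the spread between these libraries, which may be technical. The series asks how Sirt5 bears on chondrocyte metabolism and osteoarthritis, and the comparisons here ask which defence genes differed between each plasmid group and Control, and between the plasmid groups.

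Cells turn superoxide into hydrogen peroxide with superoxide dismutases, and remove peroxides with catalase, glutathione peroxidases and peroxiredoxins. The peroxidases draw on glutathione and thioredoxin, which reductases restore with NADPH. Many of these genes are targets of the transcription factor NRF2 (Nfe2l2), which its partner KEAP1 marks for degradation until oxidants or electrophiles modify KEAP1. Chondrocytes live in a matrix poor in oxygen, where extracellular superoxide dismutase is a known component, and loss of redox control is a recognised feature of osteoarthritic cartilage.

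Each library held 15095357 to 24242139 counts, so that 3 counts, taken as the floor, corresponded to 0.120 to 0.195 CPM (counts scaled to TMM-adjusted library size). This floor covers counting error only, while the SDs and SEs below include the spread between libraries. All IDs that the annotation places on the X and Y chromosomes and the mitochondrial genome were listed at 0. Mouse Sirt5 itself had 9 to 16 counts in Control, 1 to 9 in WT and 9 to 19 in SIRT5F101L. Its log2 fold change against Control was -0.86 in WT (SE 0.49, exact two-sided permutation p 0.0571, adjusted over 3 comparisons 0.129) and 0.03 in SIRT5F101L (SE 0.45, exact permutation p 0.886). Without WT replicate 4, which had 1 count, the WT value was -0.48. No rise of mouse Sirt5 was detectable at this depth in either plasmid group, and the group names below are those of the labels. The summed level of 10 chondrocyte markers was 8095 to 10118 CPM in Control, 2252 to 2402 in WT and 1792 to 2012 in SIRT5F101L, with counts for all 10 in every group and with 8 of 10 called lower and 2 higher in WT and 8 lower and 1 higher in SIRT5F101L, where 28.1% and 30.7% of all tested genes were called lower. The summed level of 6 fibroblast markers was 29619 to 35527 CPM in Control, 9650 to 11062 in WT and 9303 to 10690 in SIRT5F101L. The summed level of 10 macrophage markers was 177 to 215, 135 to 153 and 143 to 184 CPM, with Itgam at 0, and that of 7 erythroid markers was at most 0.928 CPM, with Hba-a2 at 0. The summed level of 5 osteoblast markers was 14.8 to 22.2, 1.15 to 2.05 and 1.13 to 1.88 CPM, with Phex at 0, and that of 7 neutrophil markers 0.304 to 0.798, 2.56 to 3.45 and 2.2 to 4.33 CPM. Of 9 tested macrophage markers, 8 were called lower and 1 higher in WT and 7 lower and 1 higher in SIRT5F101L, against the same shares of all genes. The chondrocyte, fibroblast, osteoblast and neutrophil sums and, in WT without overlap, the macrophage sum moved with the same groups as the defence genes, and their part in the results was not tested. In bulk RNA, fewer cells of a type and less RNA per cell cannot be told apart. SIRT5F101L replicate 1 stood apart from the other libraries of its group in how levels followed transcript length. The slope on log2 length of each gene's log2 CPM, taken from its mean over the libraries, was -0.06 there and 0.08 to 0.10 in the other 3 libraries of that group. It was -0.07 to -0.05 in Control and -0.04 to 0.05 in WT, so that replicate 1 lay within the Control range and the other 3 SIRT5F101L libraries lay above all others. Where leaving out replicate 1 changed a call or moved a called value over 1.5 times, the value without it is given.

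Most of the defence genes differed from Control in both plasmid groups, and the set did not move one way. Higher in both were the 4 tested genes of glutathione supply, Txnrd1 and Srxn1 of the thioredoxin system, and extracellular and mitochondrial superoxide dismutase. So were 3 peroxiredoxins, ferritin heavy chain, the quinone enzyme Nqo1, Hmox1, Nfe2l2, the glutathione transferase Mgst1 and the oxidant source Xdh. Catalase, 3 glutathione peroxidases and 3 glutathione transferases were lower in both. Of the 38 genes, 35 passed the filter on low counts. In WT, 28 of these 35 (80%) differed from Control at an adjusted p under 0.05 (edgeR, quasi-likelihood F, Benjamini-Hochberg), where 56.8% of all 14253 tested genes did. Higher were 20 and lower 8, against 28.7% and 28.1% of all genes. In SIRT5F101L, 28 of 35 (80%) differed, where 60.7% of all tested genes did. Higher were 17 and lower 11, against 30.0% and 30.7% of all genes. The median log2 fold change of the 35 genes was 0.31 in WT and 0.13 in SIRT5F101L, against -0.01 and -0.02 over all tested genes. With each library's trend of level on transcript length removed, the members' medians were 0.21 and 0.20, and with upper-quartile scaling 0.26 and 0.09. The groups did not overlap in 26 of the 35 genes for WT, where 53.5% of all tested genes showed this, and in 25 for SIRT5F101L, where 51.3% did. Both comparisons used the same 4 Control libraries, so their shared calls are not independent of each other. Called in both were 24 genes, 17 higher and 7 lower, with 0 in opposite directions. The share of all tested genes called in both, or in the same direction, was not counted, so these counts have no background beside them. With all libraries and TMM scaling, Txn1, Txn2, Keap1 and Nox4 passed in WT alone, Sod1, Gpx1, Prdx2 and Ftl1 in SIRT5F101L alone, and Prdx3, Gstp1 and Txnrd2 in neither. A call in 1 of these comparisons and not in the other does not show a difference between the plasmid groups, and that difference was tested on its own.

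**Figure D1:**
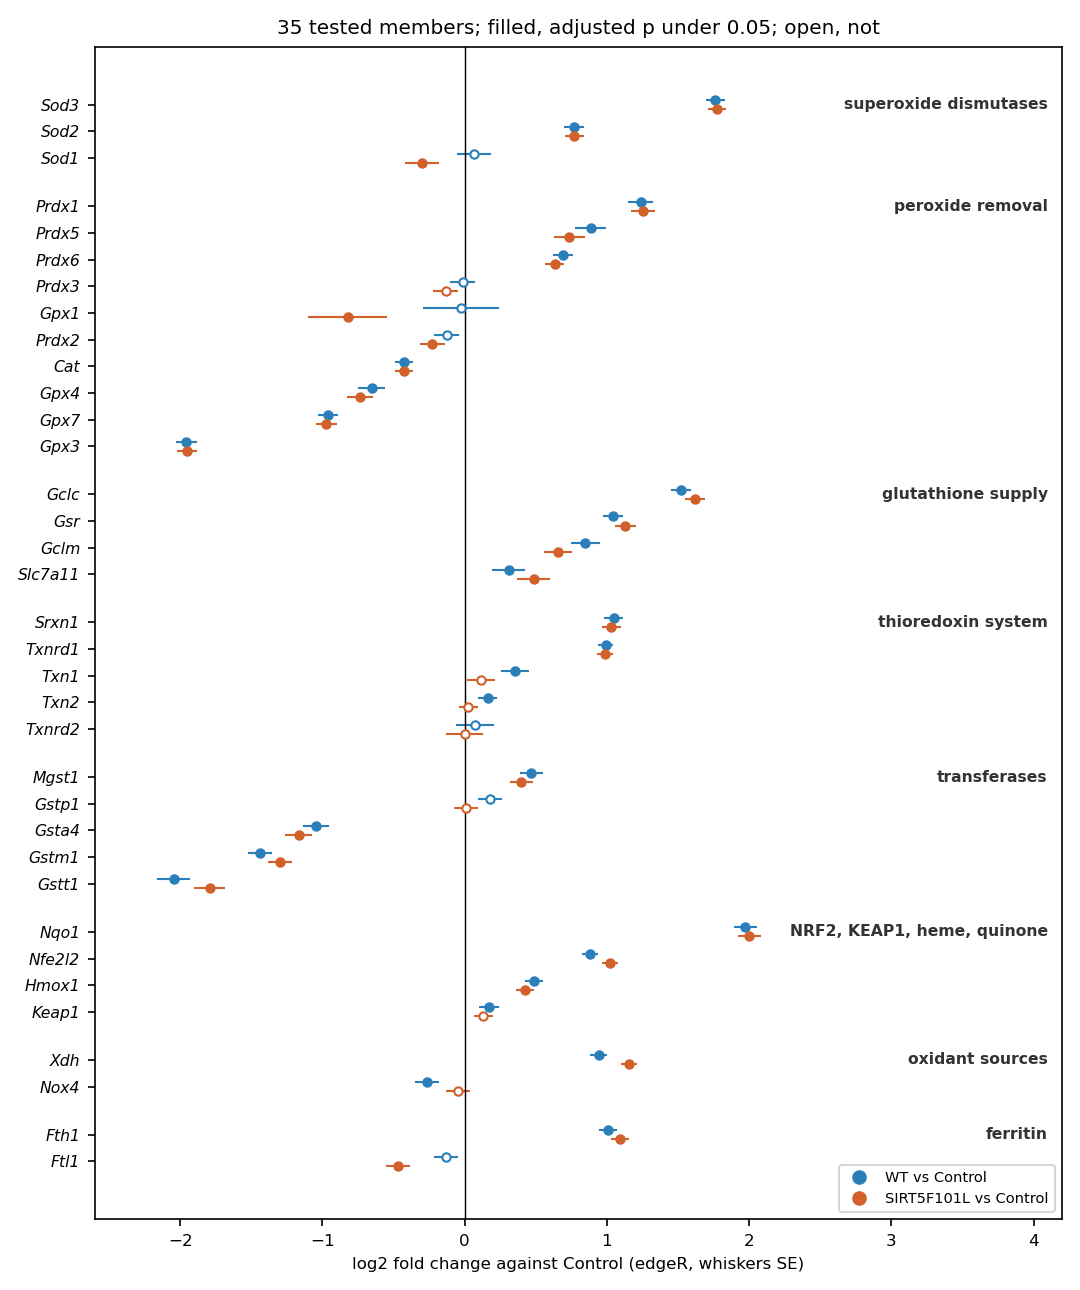
The log2 fold change against Control (x axis, edgeR, whiskers are SE) is plotted for each of the 35 tested genes, ordered within 8 functional groups, with WT in blue and SIRT5F101L in orange. Filled points passed an adjusted p of 0.05; glutathione supply lies wholly to the right of 0, while peroxide removal and the transferases spread to both sides, from Prdx1 at 1.24 to Gstt1 at -2.05 in WT.

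The filter on low counts removed 3 members. Gpx8, a peroxidase of the endoplasmic reticulum, and Txnip, an inhibitor of thioredoxin, were listed at 0 in all 12 libraries. Gss, glutathione synthetase, had 0 to 14 counts per library, with means of 0.262 ± 0.138, 0.337 ± 0.319 and 0.183 ± 0.159 CPM (SD, n = 4) in Control, WT and SIRT5F101L, near the floor, and was called neither by edgeR with no filter beyond 1 count nor by DESeq2. Exons of Txnip overlapped another gene, Gm15441, over 19.4% of their length, and those of Gss overlapped others over 15.4%. The labels do not say that the libraries marked strand, and without it reads from a gene and an overlapping antisense partner cannot be told apart.

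Divided by transcript length, the levels of the 35 tested genes spanned a wide range. On the scale of mean CPM per kilobase in Control, ferritin heavy chain Fth1 led at 3154, ahead of Gpx4 at 651, Ftl1 at 552, Hmox1 at 296, Prdx1 at 280 and Prdx5 at 238. Sod3 was seventh at 223 and Gpx3 ninth at 172. At the low end were Gpx1 at 6.34, Txnrd2 at 4.84, Gclm at 2.23 and Slc7a11 at 0.960. In WT the per-kilobase level of Sod3, 756, and that of Prdx1, 659, stood above Ftl1 at 503 and Gpx4 at 414, while Gpx3 was at 44.3. The 38 genes together took 0.796% to 0.859% of a Control library's counts, 1.43% to 1.57% of a WT library's and 1.47% to 1.65% of a SIRT5F101L library's. Fth1 and Ftl1 held a large part of this, 40.1% to 41.1% of the members' summed CPM in Control and 42.7% to 44.3% in the plasmid groups. Without them the sum was 4942 to 5144 CPM in Control, 7941 to 8888 in WT and 7957 to 9253 in SIRT5F101L. Control did not overlap with either plasmid group. Most of this rise lay in Sod3 and Prdx1. Sod3 averaged 833, 2827 and 2850 CPM in Control, WT and SIRT5F101L, and Prdx1 642, 1512 and 1532. The sum does not show that the genes rose as a set, as 8 were called lower in WT and 11 in SIRT5F101L.

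**Figure D2:**
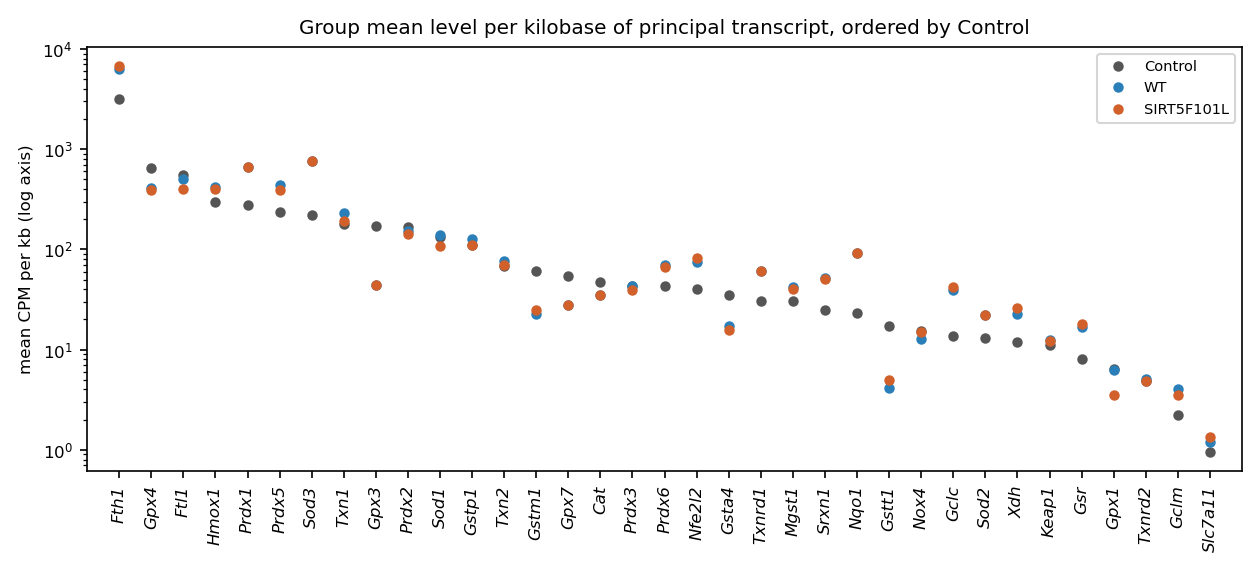
Mean CPM per kilobase of the principal transcript (y axis, log scale) for the 35 tested genes, ordered by the Control mean, with a point for each group; where fewer than 3 points show, group means coincide. Fth1 is highest in each group, and Slc7a11 is lowest at 0.960 in Control. Among the 9 genes highest in Control, Sod3 and Gpx3 have the largest fold shifts.

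Of the superoxide dismutases, the extracellular and the mitochondrial enzyme rose in both plasmid groups and the cytosolic one did not. Sod3 (ENSMUSG00000072941), the secreted enzyme, measured 837, 760.3, 855 and 879 CPM in Control, 2670.4, 2781, 3087 and 2768 in WT, and 2903, 2856, 2723 and 2919 in SIRT5F101L, for replicates 1 to 4 of each group in this order here and below. All 8 plasmid libraries lay more than 3-fold above the Control mean and the groups did not overlap. For Sod3 the log2 fold change came to 1.76 in WT (SE 0.06, edgeR adjusted p 5.53e-15) and 1.78 in SIRT5F101L (SE 0.06, edgeR adjusted p 4.87e-15), a 3.39-fold and a 3.42-fold rise. Sod2, the mitochondrial enzyme, measured 77.9, 72.2, 78 and 77.1 CPM in Control, 122, 137, 129 and 133 in WT, and 148, 130.2, 124 and 119 in SIRT5F101L. Each plasmid library was above every Control library, and SIRT5F101L replicate 1 was the highest. Against Control, Sod2 had a log2 fold change of 0.77 in WT (SE 0.07, edgeR adjusted p 8.12e-09) and 0.77 in SIRT5F101L (SE 0.07, edgeR adjusted p 7.28e-09). Sod1, the cytosolic enzyme, measured 84.8, 76.7, 92.9 and 87.1 CPM in Control, 79.6, 94.8, 88.7 and 94 in WT, and 96.5, 59.9, 63.6 and 57.1 in SIRT5F101L. WT libraries overlapped Control, whereas SIRT5F101L libraries 2, 3 and 4 were below all other libraries and replicate 1 was above all of them. For Sod1 the log2 fold change came to 0.06 (SE 0.12, edgeR adjusted p 0.67) in WT and -0.30 (SE 0.12, edgeR adjusted p 0.038) in SIRT5F101L. The call in SIRT5F101L was lost in 9 of 20 alternatives of scaling, filter, tool or libraries left out, with adjusted p from 3.43e-07 to 0.134, among them the count model DESeq2 (adjusted p 0.0524), each fit without Control replicate 1, 3 or 4, and each without SIRT5F101L replicate 2, 3 or 4. Without SIRT5F101L replicate 1 the log2 fold change of Sod1 was -0.50. Over 72.5% of its length the Sod1 transcript had a near-identical copy in Gm8566, so the value of Sod1 is less certain. Gm8566 had 0 counts, which does not show how reads shared by both were treated. The ratio of Sod2 to Sod1 counts was 0.840 to 0.942 in Control, 1.41 to 1.53 in WT and 1.54 to 2.17 in SIRT5F101L. Within SIRT5F101L it was 1.54 in replicate 1 and 1.95 to 2.17 in replicates 2 to 4. The Sod2 transcript has 5861 bases and that of Sod1 641, and the part of transcript length in this ratio was not tested.

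Among the genes that remove peroxides, 10 of 11 were tested. Prdx1, Prdx5 and Prdx6 rose and Cat, Gpx3, Gpx4 and Gpx7 fell in both plasmid groups, while Prdx2 and Gpx1 were called lower in SIRT5F101L alone and Prdx3 in neither. In WT 3 were higher and 4 lower (70% called, against 56.8% of all tested genes), and in SIRT5F101L 3 were higher and 6 lower (90%, against 60.7%). Prdx1, an abundant cytosolic peroxiredoxin that thioredoxin reduces, measured 626, 693, 640.1 and 607 CPM in Control, 1340.5, 1521, 1447 and 1741 in WT, and 1777, 1504, 1499 and 1349 in SIRT5F101L. Its lowest plasmid library was still far above its highest Control library. Prdx1 differed from Control by a log2 fold change of 1.24 in WT (SE 0.09, edgeR adjusted p 1.46e-10) and 1.26 in SIRT5F101L (SE 0.09, edgeR adjusted p 1.08e-10). Prdx5, found in mitochondria, peroxisomes and cytosol, averaged 299.8 ± 22.4 CPM in Control, 554 ± 46 in WT and 499 ± 114 in SIRT5F101L (SD, n = 4). Its log2 fold change was 0.89 and 0.74 in WT and SIRT5F101L, both called, and the groups did not overlap with Control. In SIRT5F101L replicate 1 the level of Prdx5 was 668 CPM against 415 to 459 in the other 3 libraries. Prdx6, which reduces peroxidised phospholipids with glutathione, averaged 103 ± 6.04 CPM in Control, 166 ± 10.7 in WT and 159.6 ± 12.7 in SIRT5F101L (SD, n = 4), with log2 fold changes of 0.69 and 0.63, both called. The cytosolic Prdx2 and the mitochondrial Prdx3 had smaller differences from Control than these 3. Prdx2 averaged 248 ± 10.7 CPM in Control, 227 ± 26.3 in WT and 212 ± 28.2 in SIRT5F101L, with -0.13 (SE 0.09, edgeR adjusted p 0.225) in WT and -0.23 (SE 0.09, edgeR adjusted p 0.0296) in SIRT5F101L, a call lost in 7 of 20 alternatives, among them an offset that removes each library's trend of level on transcript length, and the fits without Control replicate 1, 2 or 3 or SIRT5F101L replicate 2, 3 or 4. Prdx3 averaged 64.3 ± 5.78 CPM in Control, 63.8 ± 7.62 in WT and 58.7 ± 5.27 in SIRT5F101L and was called in neither group, with -0.13 (SE 0.09, edgeR adjusted p 0.196) in SIRT5F101L, which became -0.20 (edgeR adjusted p 0.0303) without SIRT5F101L replicate 1. Near-identical copies or overlapping genes covered 26% of the Prdx1 transcript, 60.2% of that of Prdx2, which overlaps exons of Junb and Rnaseh2a, and 32.4% of that of Prdx5, which overlaps exons of Trmt112, so the values of these 3 are less certain.

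Catalase and 3 of the 4 tested glutathione peroxidases were lower in both plasmid groups, where 28.1% (WT) and 30.7% (SIRT5F101L) of all tested genes were called lower. Gpx3, the secreted peroxidase found in plasma and extracellular matrix, measured 272, 245, 289 and 290.1 CPM in Control, 70.6, 76.1, 71.9 and 64 in WT, and 70.9, 76.8, 67.2 and 68.2 in SIRT5F101L. The 2 plasmid groups covered nearly the same range, far below every Control library. For Gpx3 the log2 fold change came to -1.96 in WT (SE 0.07, edgeR adjusted p 4.46e-15) and -1.95 in SIRT5F101L (SE 0.07, edgeR adjusted p 4.34e-15), a 3.88-fold and a 3.87-fold fall. Gpx4, which reduces lipid hydroperoxides in membranes and restrains ferroptosis, measured 617, 642, 634 and 603 CPM in Control, 364, 414, 371 and 438 in WT, and 472, 373, 338 and 317 in SIRT5F101L. All plasmid libraries were below all Control libraries, and SIRT5F101L replicate 1 was the highest of the 8. Against Control, Gpx4 had a log2 fold change of -0.65 in WT (SE 0.09, edgeR adjusted p 6.24e-06) and -0.74 in SIRT5F101L (SE 0.09, edgeR adjusted p 1.24e-06). A copy of at least 95% identity covered 80.9% of the Gpx4 transcript, and the pseudogene Gpx4-ps2 carried 1022 to 2212 counts, so its value is uncertain. Gpx7, a peroxidase of the endoplasmic reticulum, averaged 69.9 ± 2.4 CPM in Control, 36 ± 1.86 in WT and 35.7 ± 3.26 in SIRT5F101L (SD, n = 4), with log2 fold changes of -0.96 and -0.97, both called and without overlap. Cat, the peroxisomal catalase, measured 127, 137, 119 and 114 CPM in Control, 95.4, 91.3, 91.7 and 92 in WT, and 86.8, 97.6, 93.5 and 92.2 in SIRT5F101L. The 8 plasmid libraries lay close together below Control. Cat differed from Control by a log2 fold change of -0.43 in WT (SE 0.06, edgeR adjusted p 7.91e-06) and -0.43 in SIRT5F101L (SE 0.06, edgeR adjusted p 6.84e-06). Gpx1, the cytosolic and mitochondrial peroxidase, was low, at 6.56, 7.19, 7.98 and 5.46 CPM in Control, 3.94, 6.6, 8.31 and 7.91 in WT, and 7.0, 2.47, 3.53 and 2.27 in SIRT5F101L. WT libraries overlapped Control, and SIRT5F101L replicates 2, 3 and 4 lay below all other libraries. Gpx1 differed from Control by -0.03 (SE 0.27, edgeR adjusted p 0.938) in WT and -0.82 (SE 0.28, edgeR adjusted p 0.0158) in SIRT5F101L on the log2 scale, and the latter call was lost without SIRT5F101L replicate 2 (adjusted p 0.0537) or 4 (adjusted p 0.0558). Without SIRT5F101L replicate 1 the value was -1.27 (edgeR adjusted p 8.11e-06).

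**Figure D3:**
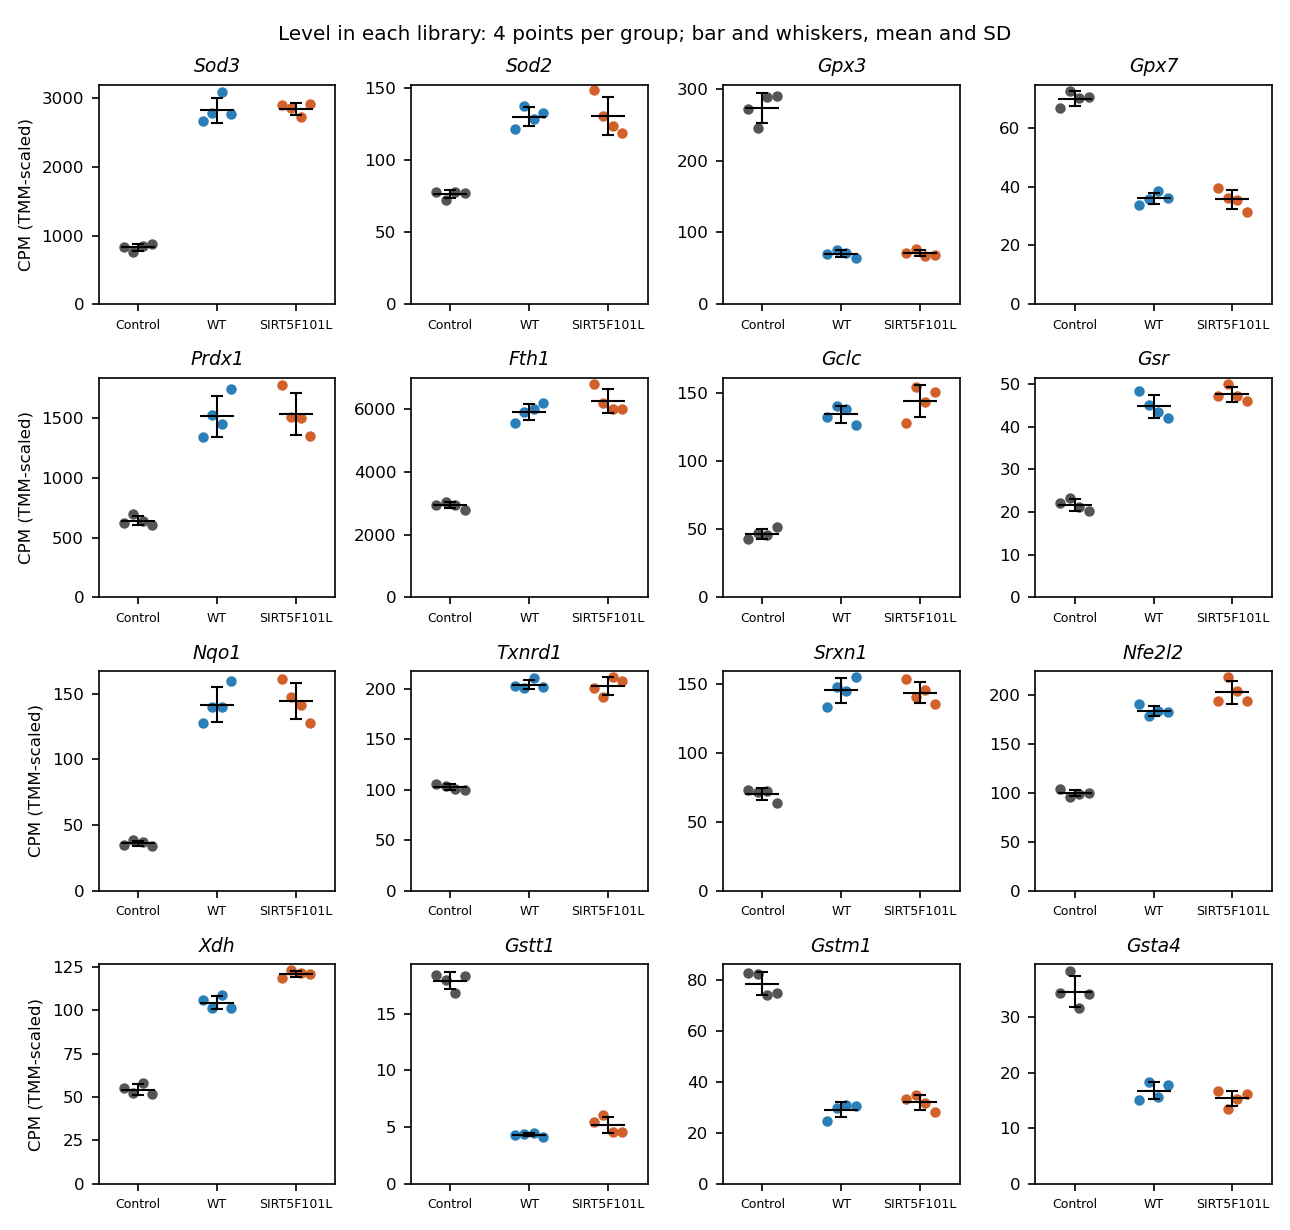
TMM-scaled CPM (y axis, from 0) in each library for 16 of the defence genes, with 4 points per group and the mean and SD as bar and whiskers. In every panel the Control libraries are apart from both plasmid groups. Gpx3, Gpx7, Gstt1, Gstm1 and Gsta4 are lower in the plasmid groups and the other 11 genes higher. All 16 are members that did not overlap with Control in either comparison, so this separation comes with the choice. Of the 35 tested members, 26 (WT) and 25 (SIRT5F101L) showed no overlap, against 53.5% and 51.3% of all tested genes.

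All 4 tested genes of glutathione supply rose in both plasmid groups, where 28.7% and 30.0% of all tested genes did. Gclc, the catalytic subunit of glutamate-cysteine ligase that limits the rate of glutathione synthesis, measured 42.7, 47.5, 45.7 and 51.4 CPM in Control, 133, 140.3, 138 and 127 in WT, and 128, 154, 143 and 150.5 in SIRT5F101L. Every plasmid library was more than 2-fold above every Control library. For Gclc the log2 fold change came to 1.52 in WT (SE 0.07, edgeR adjusted p 2.97e-13) and 1.62 in SIRT5F101L (SE 0.07, edgeR adjusted p 9.92e-14), a 2.87-fold and a 3.08-fold rise. Gclm, the regulatory subunit of the same enzyme, measured 12.6, 13.2, 12.3 and 11.9 CPM in Control, 24.1, 23.9, 21.1 and 21 in WT, and 22.3, 16.3, 21.1 and 18.9 in SIRT5F101L. The groups did not overlap, and the rise was smaller than that of Gclc. Against Control, Gclm had a log2 fold change of 0.85 in WT (SE 0.10, edgeR adjusted p 4.57e-07) and 0.66 in SIRT5F101L (SE 0.10, edgeR adjusted p 1.24e-05). Gsr, glutathione reductase, which returns oxidised glutathione to its reduced form, measured 22.2, 23.3, 21.1 and 20.1 CPM in Control, 48.3, 45.2, 43.4 and 42.1 in WT, and 47.2, 49.99, 47.2 and 45.9 in SIRT5F101L. Plasmid libraries lay close together, at about 2-fold the Control level. Gsr differed from Control by a log2 fold change of 1.04 in WT (SE 0.07, edgeR adjusted p 1.71e-10) and 1.13 in SIRT5F101L (SE 0.07, edgeR adjusted p 4.30e-11). Slc7a11, the transporter that imports cystine for glutathione synthesis, measured 9.75, 8.21, 9.15 and 8.3 CPM in Control, 11.7, 8.91, 10.4 and 12.6 in WT, and 12.1, 12.7, 11.8 and 13 in SIRT5F101L. WT replicate 2 fell within the Control range, while all SIRT5F101L libraries were above it. For Slc7a11 the log2 fold change came to 0.31 in WT (SE 0.12, edgeR adjusted p 0.0277) and 0.48 in SIRT5F101L (SE 0.11, edgeR adjusted p 0.00107). The WT call was lost in 6 of 20 alternatives: upper-quartile scaling, the length-trend offset, and the fits without Control replicate 2 or 4 or WT replicate 1 or 4. With the length-trend offset the SIRT5F101L value was 0.20 (adjusted p 0.164) and the WT value 0.14 (adjusted p 0.339).

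In the thioredoxin system 5 of 6 genes were tested. In WT 4 were called (80%, where 56.8% of all tested genes were) and in SIRT5F101L 2 (40%, where 60.7% were). All of these calls were higher, where 28.7% (WT) and 30.0% (SIRT5F101L) of all tested genes were called higher. Txnrd1, the cytosolic thioredoxin reductase, a selenoprotein, measured 106, 104, 100.6 and 99.6 CPM in Control, 203, 200.5, 210.4 and 202 in WT, and 201, 192, 212 and 208 in SIRT5F101L. The 8 plasmid libraries were all near 2-fold the Control level. Against Control, Txnrd1 had a log2 fold change of 0.99 in WT (SE 0.05, edgeR adjusted p 3.33e-12) and 0.99 in SIRT5F101L (SE 0.05, edgeR adjusted p 3.43e-12). Srxn1, sulfiredoxin, which repairs over-oxidised peroxiredoxins, measured 72.8, 71.8, 72.1 and 63.9 CPM in Control, 133, 148, 145 and 155 in WT, and 153, 140.2, 145 and 135 in SIRT5F101L. Its plasmid libraries were likewise all above Control. Srxn1 differed from Control by a log2 fold change of 1.05 in WT (SE 0.07, edgeR adjusted p 2.58e-11) and 1.03 in SIRT5F101L (SE 0.07, edgeR adjusted p 3.14e-11). Txn1, cytosolic thioredoxin, averaged 188 ± 9.37 CPM in Control, 241 ± 22 in WT and 204 ± 40.6 in SIRT5F101L (SD, n = 4), with 0.36 (SE 0.10, edgeR adjusted p 0.00488) in WT and 0.12 (SE 0.10, edgeR adjusted p 0.327) in SIRT5F101L. With the length-trend offset the SIRT5F101L value of Txn1 was 0.23 and was called (edgeR adjusted p 0.00657). In SIRT5F101L replicate 1 Txn1 was at 262 CPM and in replicates 2 and 4 at 175 and 177, where Control libraries ranged from 175 to 196. A copy in the pseudogene Txn-ps1 covered 29.3% of the Txn1 transcript. The mitochondrial pair, Txn2 and Txnrd2, moved little. Txn2 averaged 139 ± 5.84 CPM in Control, 156 ± 7.89 in WT and 142 ± 13.3 in SIRT5F101L, with 0.16 (SE 0.07, edgeR adjusted p 0.0458) in WT, a call lost in 10 of 20 alternatives with adjusted p up to 0.155, and 0.03 (SE 0.07, edgeR adjusted p 0.759) in SIRT5F101L. Txnrd2 averaged 9.23 ± 0.879 CPM in Control, 9.73 ± 1.07 in WT and 9.21 ± 1.65 in SIRT5F101L and was called in neither group.

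Nfe2l2, which encodes NRF2, rose together with the heme and quinone enzymes. Its level was 104, 95.6, 99 and 99.8 CPM in Control, 190.1, 178, 184 and 182 in WT, and 194, 218, 204 and 194 in SIRT5F101L. Control libraries lay in a narrow band well below the 8 plasmid libraries. For Nfe2l2 the log2 fold change came to 0.88 in WT (SE 0.06, edgeR adjusted p 4.51e-11) and 1.02 in SIRT5F101L (SE 0.06, edgeR adjusted p 4.03e-12). Keap1, which encodes the protein that holds NRF2 in check, measured 40.4, 40.2, 39.1 and 41.8 CPM in Control, 43.9, 45.6, 44.8 and 47.3 in WT, and 47.1, 40.3, 46.4 and 42.8 in SIRT5F101L. All WT libraries were above Control by a small margin, while SIRT5F101L replicate 2 lay within the Control range. Exons of Keap1 overlapped those of Gm16754 over 10.9% of their length, so its small differences are less certain. For Keap1 the log2 fold change came to 0.17 (SE 0.07, edgeR adjusted p 0.0368) in WT and 0.13 (SE 0.07, edgeR adjusted p 0.1) in SIRT5F101L, the latter called (edgeR adjusted p 0.0419) without SIRT5F101L replicate 2. The WT call was lost in 9 of 20 alternatives with adjusted p up to 0.143, among them upper-quartile scaling and the fits without Control replicate 1, 2 or 3 or WT replicate 2, 3 or 4. Nqo1, a quinone reductase that is a common readout of NRF2 activity, measured 34.6, 38.5, 37.1 and 34.2 CPM in Control, 128, 140.3, 139.7 and 159 in WT, and 161, 148, 142 and 128 in SIRT5F101L. Its plasmid libraries reached about 4-fold the Control level. Against Control, Nqo1 had a log2 fold change of 1.97 in WT (SE 0.08, edgeR adjusted p 2.99e-14) and 2.0 in SIRT5F101L (SE 0.08, edgeR adjusted p 2.25e-14), the highest of the 35 genes in each comparison. Hmox1, heme oxygenase, which breaks down heme and releases iron, measured 469, 492, 460.1 and 437 CPM in Control, 637, 667, 640.3 and 663 in WT, and 703, 614, 598 and 579 in SIRT5F101L. The rise was smaller than that of Nqo1 and the groups did not overlap. Hmox1 differed from Control by a log2 fold change of 0.49 in WT (SE 0.06, edgeR adjusted p 1.63e-06) and 0.42 in SIRT5F101L (SE 0.06, edgeR adjusted p 9.20e-06).

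NRF2 and its small MAF partners bind the antioxidant response element, whose core is TGACNNNGC. This core was searched on both strands of RefSeq promoter windows (GRCm38.p6, 250 bases before to 50 after a start site), of which 31 of the 38 genes had at least 1. Of all 27025 genes with a window, 14% held the core. Of the 31 genes, 7 held it (22.6%). They were Gclm, Mgst1, Nfe2l2, Prdx1, Srxn1 and Txnrd1, all higher in both plasmid groups, and Sod1. Among the genes higher in both comparisons, 6 of the 11 with a window held it, against 0 of 6 among those lower in both. The risers with a window that lacked it were Nqo1, Sod2, Slc7a11, Prdx5 and Fth1. Counted by window, 7 of the members' 39 held it, against 12.4% of all 32851 windows. Txnrd1 held it in 1 of its 3 windows and Mgst1 in 1 of 2. These counts are a description with no test, a match is not a bound site, and no match says only that these letters are absent from the window. The table held no window for Gclc, Gsr, Hmox1, Prdx6, Gsta4, Xdh and Sod3. The 250 bases before the start are printed for the 5 genes that rose and held the core there, and for Sod1, which held the core and did not rise. Capitals mark the core, which reads on the opposite strand in Prdx1, Txnrd1, Gclm, Mgst1 and Sod1 and on the printed strand in Nfe2l2, and its first printed base is given relative to the start site. The windows are chr4:116685349-116685598 on the plus strand for Prdx1 (core at -133), chr10:82858956-82859205 on the plus strand for Txnrd1 (core at -92), chr3:122245307-122245556 on the plus strand for Gclm (core at -134), chr2:75704664-75704913 on the minus strand for Nfe2l2 (core at -240), chr6:138140277-138140526 on the plus strand for Mgst1 (core at -56) and chr16:90220512-90220761 on the plus strand for Sod1 (core at -56). The match in Prdx1 also contains TGACTCA, the site of AP-1 factors, and those in the other 5 do not.
Prdx1: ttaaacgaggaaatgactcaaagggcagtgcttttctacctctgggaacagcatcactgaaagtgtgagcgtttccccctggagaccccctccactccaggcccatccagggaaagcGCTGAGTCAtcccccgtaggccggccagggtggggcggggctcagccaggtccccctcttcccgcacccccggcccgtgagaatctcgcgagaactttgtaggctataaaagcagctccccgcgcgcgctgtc
Txnrd1: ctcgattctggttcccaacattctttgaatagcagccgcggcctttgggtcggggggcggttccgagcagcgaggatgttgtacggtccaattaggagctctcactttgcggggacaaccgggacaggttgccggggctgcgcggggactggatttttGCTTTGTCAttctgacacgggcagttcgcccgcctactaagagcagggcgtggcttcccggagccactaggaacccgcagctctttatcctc
Gclm: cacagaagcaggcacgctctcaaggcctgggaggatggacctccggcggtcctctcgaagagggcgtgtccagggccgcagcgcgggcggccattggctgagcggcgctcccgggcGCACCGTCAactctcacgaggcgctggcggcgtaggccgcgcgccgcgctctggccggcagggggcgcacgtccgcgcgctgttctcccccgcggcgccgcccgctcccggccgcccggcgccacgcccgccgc
Nfe2l2: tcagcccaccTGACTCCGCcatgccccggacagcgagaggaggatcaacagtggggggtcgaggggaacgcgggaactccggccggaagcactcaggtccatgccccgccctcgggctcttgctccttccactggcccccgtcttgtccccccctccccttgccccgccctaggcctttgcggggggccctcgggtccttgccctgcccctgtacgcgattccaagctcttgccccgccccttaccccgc
Mgst1: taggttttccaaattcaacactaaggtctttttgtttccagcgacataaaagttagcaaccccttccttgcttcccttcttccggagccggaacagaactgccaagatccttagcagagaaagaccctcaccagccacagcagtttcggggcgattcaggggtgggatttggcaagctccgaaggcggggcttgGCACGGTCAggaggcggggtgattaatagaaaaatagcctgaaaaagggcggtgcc
Sod1: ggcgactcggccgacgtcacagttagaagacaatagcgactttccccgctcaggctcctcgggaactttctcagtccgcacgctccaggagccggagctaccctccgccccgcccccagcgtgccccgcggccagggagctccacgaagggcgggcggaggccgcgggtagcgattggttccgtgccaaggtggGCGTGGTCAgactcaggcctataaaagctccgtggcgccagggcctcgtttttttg

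The glutathione transferases, which join glutathione to electrophiles, moved mostly the other way. Of 5 tested genes 3 fell and 1 rose in each plasmid group (80% called, against 56.8% and 60.7% of all tested genes). Gstt1 (theta class) measured 18.4, 18, 16.8 and 18.3 CPM in Control, 4.34, 4.42, 4.44 and 4.11 in WT, and 5.45, 6.1, 4.61 and 4.59 in SIRT5F101L. Control and plasmid libraries were far apart, and the 4 WT libraries lay below the 4 SIRT5F101L libraries. For Gstt1 the log2 fold change came to -2.05 in WT (SE 0.12, edgeR adjusted p 5.36e-12) and -1.79 in SIRT5F101L (SE 0.11, edgeR adjusted p 2.86e-11), a 4.13-fold and a 3.47-fold fall. Gstm1 (mu class) measured 83, 82.6, 74.4 and 75.1 CPM in Control, 24.7, 29.9, 31 and 30.7 in WT, and 33.4, 34.9, 31.8 and 28.1 in SIRT5F101L. WT replicate 1 was the lowest of its group, and no plasmid library reached the Control range. Against Control, Gstm1 had a log2 fold change of -1.44 in WT (SE 0.08, edgeR adjusted p 1.01e-11) and -1.3 in SIRT5F101L (SE 0.08, edgeR adjusted p 4.30e-11). A copy in the pseudogene Gstm2-ps1 covered 51% of the Gstm1 transcript. Gsta4 (alpha class), which conjugates the lipid peroxidation product 4-hydroxynonenal, measured 34.3, 38.2, 31.6 and 34.1 CPM in Control, 15.1, 18.4, 15.7 and 17.8 in WT, and 16.6, 13.4, 15.2 and 16.2 in SIRT5F101L. The plasmid libraries were all well under the lowest Control library. Gsta4 differed from Control by a log2 fold change of -1.05 in WT (SE 0.09, edgeR adjusted p 6.98e-09) and -1.17 in SIRT5F101L (SE 0.09, edgeR adjusted p 1.32e-09). Mgst1, a transferase of microsomal membranes, was the member that rose. It averaged 35.8 ± 1.5 CPM in Control, 49.6 ± 3.46 in WT and 47.3 ± 5.95 in SIRT5F101L (SD, n = 4), with log2 fold changes of 0.47 and 0.40, both called. Gstp1 averaged 91.2 ± 7.1 CPM in Control, 103 ± 9.58 in WT and 91.7 ± 10.2 in SIRT5F101L and was called in neither group, with 86.1% of its transcript shared with copies such as Gstp2. Its WT value of 0.18 (SE 0.08, edgeR adjusted p 0.075) was called in 5 of 20 alternatives, among them the fits without WT replicate 1 (0.24, edgeR adjusted p 0.0188) and without SIRT5F101L replicate 1 (0.18, edgeR adjusted p 0.0181).

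Ferritin, the iron store that keeps iron from driving radical formation, did not move as a unit. Fth1, the heavy chain with ferroxidase activity, measured 2950.0, 3023, 2954 and 2792 CPM in Control, 5543, 5885, 5981 and 6172 in WT, and 6790.2, 6182, 5988 and 5991 in SIRT5F101L. Plasmid libraries were about 2-fold above Control with no overlap. For Fth1 the log2 fold change came to 1.01 in WT (SE 0.06, edgeR adjusted p 2.35e-11) and 1.09 in SIRT5F101L (SE 0.06, edgeR adjusted p 6.61e-12). Ftl1, the light chain, measured 549, 537, 541 and 511 CPM in Control, 446, 495, 522 and 485 in WT, and 476, 358, 373 and 336 in SIRT5F101L. WT libraries overlapped the lower edge of Control, and all SIRT5F101L libraries lay below Control. For Ftl1 the log2 fold change came to -0.13 (SE 0.08, edgeR adjusted p 0.185) in WT and -0.47 (SE 0.08, edgeR adjusted p 7.31e-05) in SIRT5F101L. Without SIRT5F101L replicate 1 the WT value, still -0.13, had an edgeR adjusted p of 0.0355. The Ftl1 transcript was covered over 100% of its length by near-identical copies in 13 genes, of which Ftl1-ps1 had 69 to 141 counts, so its value is uncertain. Of the oxidant sources, Xdh, the xanthine dehydrogenase that can act as an oxidase, measured 55.2, 52.3, 58 and 51.5 CPM in Control, 106, 101.0, 109 and 101.2 in WT, and 119, 123, 121 and 121 in SIRT5F101L. The 3 groups did not overlap, with SIRT5F101L the highest. Against Control, Xdh had a log2 fold change of 0.94 in WT (SE 0.06, edgeR adjusted p 2.14e-11) and 1.16 in SIRT5F101L (SE 0.06, edgeR adjusted p 7.52e-13). Nox4, an NADPH oxidase subunit that makes hydrogen peroxide, averaged 57.5 ± 5.66 CPM in Control, 47.8 ± 3.62 in WT and 55.7 ± 4.78 in SIRT5F101L (SD, n = 4), with -0.26 (SE 0.08, edgeR adjusted p 0.0104) in WT and -0.05 (SE 0.08, edgeR adjusted p 0.651) in SIRT5F101L.

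Between the plasmid groups, edgeR called 0 of the 35 genes, where 6 of 14253 genes (0.0421%) were called. At an unadjusted p under 0.05, edgeR gave 7 of the 35 genes and 11.9% of all genes. DESeq2 called 1 member, Xdh (log2 fold change 0.22, adjusted p 0.045), and 38 or 0.298% of the 12755 genes it tested. The groups did not overlap in 3 members, Gstt1, Nfe2l2 and Xdh, each higher in SIRT5F101L, where 4.02% of all tested genes showed this. The log2 fold change of SIRT5F101L against WT was 0.21 (SE 0.06, edgeR adjusted p 0.241) for Xdh. It was 0.14 (SE 0.06, edgeR adjusted p 0.371) for Nfe2l2 and 0.25 (SE 0.13, edgeR adjusted p 0.43) for Gstt1. The lowest value was that of Gpx1, -0.79 (SE 0.28, edgeR adjusted p 0.36). Sod1 was at -0.36 (SE 0.12, edgeR adjusted p 0.355) and Ftl1 at -0.34 (SE 0.08, edgeR adjusted p 0.217). A p that misses the threshold does not show that the plasmid groups were alike.

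These results depended on SIRT5F101L replicate 1. In that library Sod1 was at 96.5 CPM against 57.1 to 63.6 in the other 3, Ftl1 at 476 against 336 to 373, and Gpx1 at 7.0 against 2.27 to 3.53. Without it, edgeR called 11 of the 35 members, and 2212 genes or 15.2% of the 14528 tested. The 3 higher members were Nfe2l2 (log2 fold change 0.16), Nox4 (0.28) and Xdh (0.22). The 8 lower members were Sod1 (-0.56, edgeR adjusted p 2.98e-06), Ftl1 (-0.45, edgeR adjusted p 5.54e-06), Gpx1 (-1.24), Gpx4 (-0.21), Txn1 (-0.38), Txn2 (-0.20), Prdx5 (-0.32) and Gstp1 (-0.25). The principal transcripts of the 8 lower members were 641 to 2049 bases long and those of the 3 higher members 2475 to 4600 bases, within a range of 641 to 9223 for the 35 genes. Across the 35 genes, which are not independent replicates and share all libraries, Spearman's rho of this log2 fold change with transcript length was 0.496 with all libraries and 0.512 without that library. With that library left out and each library's length trend removed as well, an alternative added after seeing the data, 8 members were called, and 1221 genes or 8.51% of the 14344 tested. Nfe2l2 and Nox4 stayed higher there, and Sod1, Gpx1, Gclm, Txn1, Prdx5 and Ftl1 were lower. Sod1 was then at -0.40 (edgeR adjusted p 4.79e-05) and Ftl1 at -0.33 (edgeR adjusted p 0.000156).

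**Figure D4:**
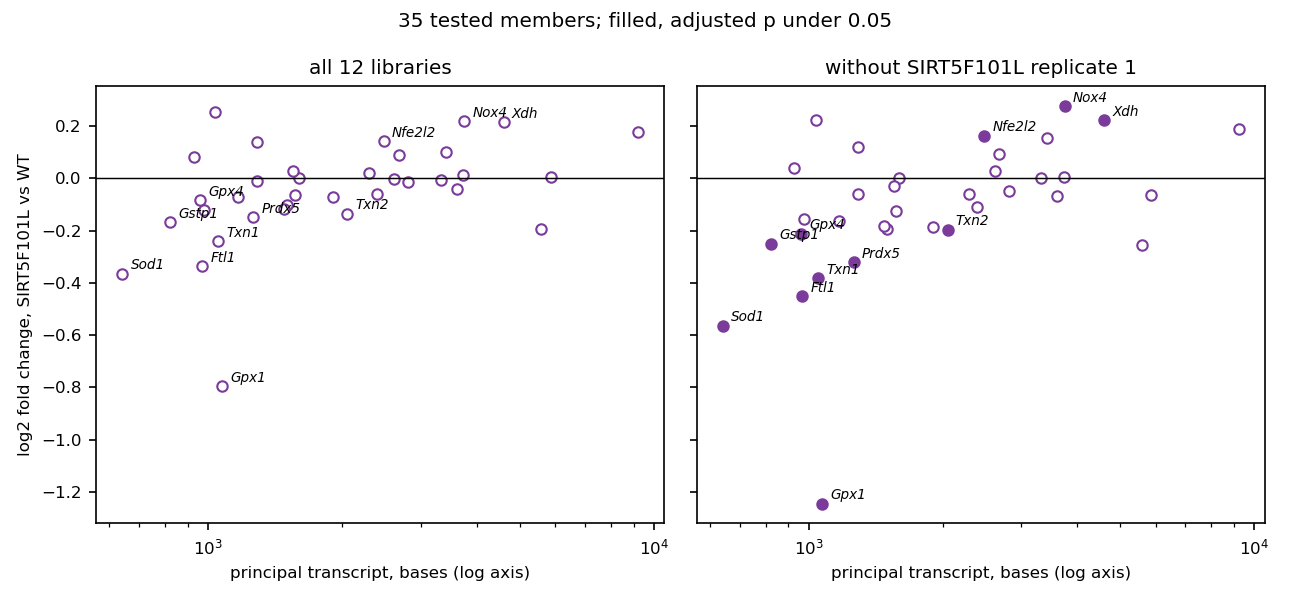
The log2 fold change of SIRT5F101L against WT (y axis) is plotted against principal transcript length in bases (x axis, log scale) for the 35 tested genes, with all 12 libraries on the left and without SIRT5F101L replicate 1 on the right. Filled points passed an adjusted p of 0.05: 0 on the left and 11 on the right, where the 8 lower ones are at most 2049 bases long.

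Other genes of these pathways were counted from lists chosen with earlier results of these data known, and their counts stand beside the 56.8% (WT) and 60.7% (SIRT5F101L) of all tested genes that were called, with 28.7% and 30.0% higher and 28.1% and 30.7% lower. Of 19 NRF2 partners, regulators and reporter targets, all tested, 5 were higher and 8 lower in WT (68.4% called) and 5 higher and 9 lower in SIRT5F101L (73.7% called). Maff, a small MAF protein that pairs with NRF2, rose. It averaged 23.8 ± 2.08 CPM in Control, 91.4 ± 10.5 in WT and 84.1 ± 16.1 in SIRT5F101L (SD, n = 4), with log2 fold changes of 1.94 and 1.82. Ephx1, microsomal epoxide hydrolase, fell. It averaged 599 ± 28.5 CPM in Control, 402 ± 14.5 in WT and 388 ± 24.4 in SIRT5F101L, with log2 fold changes of -0.57 and -0.63. Of 24 genes of glutathione breakdown, conjugation and cysteine supply, 20 were tested, with 5 higher and 11 lower in WT (80% called) and 4 higher and 11 lower in SIRT5F101L (75% called). Mgst2, a microsomal transferase, had the highest log2 fold change in WT among those called, with 1.17 and 1.51. Ggt5, an extracellular enzyme that cleaves glutathione conjugates, was lowest, with 163 to 242 counts in Control and 0 to 5 in the plasmid libraries, near the floor, so its fold has no firm size. Among 9 tested methionine sulfoxide reductases, sestrins and related genes, 1 was higher and 6 lower in WT (77.8% called), and 2 were higher and 6 lower in SIRT5F101L (88.9% called). Oxr1, a protein that protects against oxidative damage, was at 0.56 and 0.62, and Sesn2, a stress-induced sestrin, at -1.0 and -1.0. All 13 tested genes of NADPH supply were called in both groups, 8 higher and 5 lower. Nadk2, mitochondrial NAD kinase, rose. It averaged 16.1 ± 2.02 CPM in Control, 45.7 ± 2.54 in WT and 53.2 ± 2.88 in SIRT5F101L, with log2 fold changes of 1.5 and 1.72. Idh2, the mitochondrial isocitrate dehydrogenase that makes NADPH, fell. It averaged 100.7 ± 5.91 CPM in Control, 29.1 ± 1.59 in WT and 26.8 ± 2.34 in SIRT5F101L, with log2 fold changes of -1.79 and -1.91. Between the plasmid groups 0 of the 61 tested genes of these 4 lists were called by edgeR, with 8 (13.1%) at an unadjusted p under 0.05, against 11.9% of all tested genes.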

How the data were processed

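Poly(A) RNA of 12 libraries was sequenced as paired-end reads, per the labels' protocols. The deposited counts, whole numbers for each Ensembl gene ID, were made by the authors with HISAT2 2.2.1 and HTSeq 2.0.2 on GRCm39, per the submitters' processing notes, which also name FastQC 0.11.9 and DESeq2 1.38.3. The strand setting is not given in the sources used here. Of 57010 IDs, 52029 found a symbol in a table of gene names.

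Counts were fitted with edgeR 4.0.16 (R 4.3.3): its default filter by group, TMM scaling and quasi-likelihood tests from 1 model of the 12 libraries (3 group means, 9 residual degrees of freedom). After filtering 14253 genes remained, and 2-sided p-values were adjusted over all of them by Benjamini-Hochberg and called under 0.05. The SE is the log2 fold change divided by the square root of F. CPM are TMM-scaled, floors included. For Sirt5 an exact permutation test over 70 arrangements was added. The pipeline was tested on simulated data. Lengths, exon overlaps (bedtools 2.31.1) and copies of at least 95% identity over at least 100 bases (BLAST 2.17.0) came from the principal transcripts of GENCODE M21 on GRCm38, which differs from the build of the counts, so no gene coordinates are given. Lengths covered 98.8% of tested genes. Promoters are RefSeq's, on GRCm38.p6.

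The members, the gene lists and the tests were chosen with earlier results of these data known. Values in every library are given for members called in both comparisons with Control, in the same direction, with a log2 fold change of at least 1 in size in both, and for Nfe2l2, Keap1, Hmox1, Nqo1, Gclc, Gclm, Slc7a11, Sod1, Sod2, Cat, Gpx4, Txnrd1, Srxn1 and Txnip. Xdh, Ftl1 and Gpx1 were added after their values were seen. From each further list the called genes with the highest and the lowest log2 fold change in WT were named, and Sirt5 always. Alternatives were upper-quartile scaling, RLE scaling, a filter of 1 count only, a filter at a mean of 1 CPM, a robust prior, only the 8 libraries compared, DESeq2 1.42.0, each library's loess trend of level on transcript length (span 0.5) as an offset, and leaving out each library in turn. Replicate numbers follow the order of deposition.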

Additional observations from a re-analysis of the deposited data

Results flagged for a closer look

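Within groups of 4, levels of each gene and of the members' sum were screened for a library far from the other 3 (Dixon's ratio above 0.829). It was found for 7 of 111 levels examined, all of single genes, where chance gives about 1 in 20, or 5.55. SIRT5F101L replicate 1 was the library in 3 of them. It was high for Sod1, at 96.5 CPM against 57.1 to 63.6 in the other libraries of its group. For Gstp1 it was at 107 CPM against 86.0 to 87.4. For Mgst1 it was at 56.2 CPM against 43.9 to 44.9. WT replicate 1 was low for Txnrd2, at 8.13 CPM against 10.1 to 10.4, and for Gstm1, at 24.7 CPM against 29.9 to 31.0. Control replicate 2 was low for Sod2, at 72.2 CPM against 77.1 to 78.0. Control replicate 4 was low for Srxn1, at 63.9 CPM against 71.8 to 72.8.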

How the results depend on the processing

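Members called in WT against Control numbered 25 to 30 over 20 alternatives, and 25 of the 28 were called in every alternative; Slc7a11, Txn2 and Keap1 were not. In SIRT5F101L against Control the count was 25 to 29, and 24 of 28 were called in every alternative, all but Sod1, Gpx1, Prdx2 and Slc7a11. Over the same alternatives, 7549 to 8747 of all genes were called in WT and 8030 to 9179 in SIRT5F101L. How many of all genes were called in every alternative was not counted. For the 84 called differences from Control of members and named genes, 1634 values over the alternatives kept direction and call, 44 lost the call and 0 reversed. For 27 uncalled differences of members (14 from Control, and the 13 between plasmid groups with an unadjusted p under 0.05, no overlap or a call in any alternative, the other 22 not being tallied), 497 values stayed uncalled in the same direction, 33 gained the call and 23 changed sign. Those that changed sign were, against Control in WT, Prdx3 (0.0011 with only the 8 libraries compared, 0.0501 with the length-trend offset) and Gpx1 (0.0196 with that offset), and in SIRT5F101L, with upper-quartile scaling, Txn2 (-0.0193), Gstp1 (-0.0369) and Txnrd2 (-0.0451), the last also with no filter beyond 1 count (-0.0012). Leaving out 1 library gave -0.0995 to 0.0387 for Prdx3 and -0.149 to 0.164 for Gpx1 in WT, and in SIRT5F101L -0.0358 to 0.066 for Txn2, -0.0263 to 0.181 for Txn1, -0.0906 to 0.0138 for Nox4, -0.0727 to 0.0422 for Gstp1 and -0.115 to 0.0828 for Txnrd2. Between SIRT5F101L and WT the count of 6 genes became 354 with no filter beyond 1 count, 2 with a robust prior, 2 with only the 8 libraries compared, 38 with DESeq2 and 21 with the length-trend offset. Leaving out 1 library gave 0 to 2212 genes and 0 to 11 members: 2212 and 11 without SIRT5F101L replicate 1, 3 and 0 without Control replicate 2, and 0 and 0 without any other. Members numbered 4 with no filter beyond 1 count (Sod1, Gpx1, Txn1 and Ftl1) and 1 with DESeq2. The combination of the length-trend offset and leaving out SIRT5F101L replicate 1, chosen after seeing the data, gave 1221 genes and 8 members. The cause of these shifts was not tested. The Sirt5 log2 fold change in SIRT5F101L against Control, 0.03, turned to -0.0109 with upper-quartile scaling, and ran from -0.31 to 0.18 when 1 library was left out, at -0.31 without SIRT5F101L replicate 2 and -0.11 without Control replicate 3. No paired analysis was possible because the labels give no replicate numbers that groups share. Low counts limit the values of Gss, Sirt5, Gpx1, Ggt5, Ncf1 and, in Control, Nos2.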

Other observations

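Genes of iron handling, of oxidant production and of selenoprotein synthesis were read from the same fits, in which 56.8% of all tested genes were called in WT and 60.7% in SIRT5F101L against Control. Of 12 tested genes of iron uptake, export and sensing, 8 were higher and 2 lower in WT (83.3% called) and 9 higher and 2 lower in SIRT5F101L (91.7% called). Lcn2, lipocalin 2, which binds iron-carrying siderophores and is induced in inflammation, averaged 4.36 ± 1.27 CPM in Control, 310.2 ± 34.5 in WT and 355 ± 50.1 in SIRT5F101L (SD, n = 4), with log2 fold changes of 6.16 and 6.35. Slc40a1, ferroportin, the cell's iron exporter, averaged 22.5 ± 0.129 CPM in Control, 3.9 ± 0.305 in WT and 4.82 ± 0.934 in SIRT5F101L, with log2 fold changes of -2.53 and -2.22. Of the other called genes, the transferrin receptor Tfrc was at 1.77 and 1.74 and the metal importer Slc39a8 at 2.96 and 3.04, both named after their values were seen.

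Of 9 tested oxidant-producing enzymes, 1 was higher and 5 lower in each plasmid group (66.7% called). The gene that rose was Nos2, inducible nitric oxide synthase, with 4, 0, 13 and 1 counts in Control, 281 to 353 in WT and 406 to 778 in SIRT5F101L. Its log2 fold change of 6.07 and 6.77 became 7.43 and 8.13 without Control replicate 3. Ncf1, a cytosolic subunit of the phagocyte oxidase, was lowest, with 13 to 32 counts in Control, 3 to 6 in WT and 5 to 9 in SIRT5F101L. Of 11 tested genes of selenoprotein synthesis and other selenoproteins, 2 were higher and 6 lower in each plasmid group (72.7% called). Sephs2, which makes the selenium donor, averaged 19.1 ± 1.6 CPM in Control, 25.7 ± 2.9 in WT and 25.4 ± 3.61 in SIRT5F101L (SD, n = 4), with log2 fold changes of 0.43 and 0.41. Selenop, the secreted selenium carrier, averaged 100.8 ± 5.68 CPM in Control, 30.1 ± 4.63 in WT and 34.7 ± 3.82 in SIRT5F101L, with -1.75 and -1.54. Between the plasmid groups edgeR called 0 of the 32 tested genes of these 3 lists, with 6 (18.8%) at an unadjusted p under 0.05, against 11.9% of all tested genes.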
